A study of Mus musculus with 16 samples.

Results

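Olfactory receptor genes (symbols starting with Olfr) were described here as dim features of a macrophage array experiment. Members were selected on detection: an Olfr probe was kept where the scanner software called it well above background on each of the 4 arrays of any group. That rule kept 356 of the 952 Olfr probes on the array, from 349 of 908 Olfr genes, out of 41174 probes that are not controls and 25534 probes tested. The passing share was 37.4% of Olfr probes against 62.0% of all probes. Since members were chosen by their detection on these same arrays, it is given as a description, and a member that passed in only some groups had to be brighter there.

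RNA came from adherent peritoneal macrophages of male mice and was measured on 16 single-colour arrays, 4 in each of 4 groups. The groups were fld cells given LPS, fld cells left untreated, control cells given LPS and control cells left untreated. LPS, a bacterial ligand of TLR4, was used at 100 ng/ml over 5 h in medium without serum. The fld mice carry fatty liver dystrophy, a mutation of Lpin1 (which encodes lipin-1, a lipid phosphatase), and the control mice are heterozygotes of the same strain (BALB/cByJ-Lpin1fld/J), so both genotypes carry the fld allele. The mutation is carried by the whole animal, so cells other than macrophages in those mice had it too. The design text names 4 mice of each genotype. The labels do not say whether untreated and LPS arrays share mice. Unless the 4 arrays of a group hold RNA of different mice, p-values reflect only spread that may be technical. The study asked what lipin-1 does to gene expression under TLR4 stimulation. Each group lay on 1 slide of its own and was scanned with it, so a slide's own effect and that of its group cannot be told apart.

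Olfactory receptors are G protein-coupled receptors that bind odorants on the cilia of olfactory sensory neurons, each of which usually expresses 1 receptor gene. They signal through the G protein subunit encoded by Gnal, adenylyl cyclase 3 and a cyclic nucleotide gated channel that contains Cnga2. Most of the genes lie in clusters and have a coding region without introns. Transcripts of most receptors are scarce outside the nose, with exceptions such as Olfr78 in vessels and kidney, Olfr544 in liver and fat, Olfr16 in testis and Olfr2 in macrophages of arteries. Probes for such genes are therefore often read as a gauge of dim signal.

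The check of the labels on Lpin1 and the cell type markers came first. Of 4 Lpin1 probes, the brightest lay between -2.15 and -0.33 on the log2 scale in the fld arrays and between -1.81 and -1.30 in the control arrays. The other 3 were well above background on every control array, and on 1 or 2 of the 4 fld LPS arrays and 1 of the 4 untreated fld arrays. On those 3 probes fld replicate 4 read -3.54 to -2.61 with LPS and -1.94 to -1.36 untreated, against -4.43 to -1.99 in control arrays and -7.35 to -4.58 in fld replicates 1 to 3. Because replicate 4 goes against its label on these probes, the group is called labelled fld. Values without those 2 arrays stand beside the main member medians of the comparisons that use fld arrays. Except where stated, all other values include them, among them those of other probe sets, classes, bands, families, markers and single members. All 8 macrophage markers examined were well above background on all arrays, with a median log2 level of 4.55. Of 8 markers of olfactory sensory neurons 6 are on the array, and 3 of these (Gnal, Rtp1 and Stoml3) were on no group's 4 arrays well above background. The 75th percentile of processed intensity ran from 189 to 627 over the arrays. In these bulk samples fewer cells of a type and less RNA per cell cannot be told apart.

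No probe sequences are printed here. RefSeq start windows of 3 bright members are shown because these receptors were well above background on every array. Limma called Olfr374 higher with LPS in both genotypes, Olfr544 in cells labelled fld, and Olfr571 in neither, as the values further on show. The windows are from assembly GRCm38.p6, read 5′ to 3′ on the strand of the gene, ending with the first 3 transcribed bases in capitals. Capitals inside Olfr374 mark a match to CCCNNGGG.
Olfr374, chr8:72106790-72107042, plus strand: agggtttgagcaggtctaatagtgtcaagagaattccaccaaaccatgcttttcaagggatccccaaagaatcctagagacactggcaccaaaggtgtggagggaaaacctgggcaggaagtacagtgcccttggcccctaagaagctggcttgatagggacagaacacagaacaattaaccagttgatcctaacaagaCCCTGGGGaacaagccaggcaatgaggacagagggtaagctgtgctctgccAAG
Olfr544, chr7:102488305-102488557, minus strand: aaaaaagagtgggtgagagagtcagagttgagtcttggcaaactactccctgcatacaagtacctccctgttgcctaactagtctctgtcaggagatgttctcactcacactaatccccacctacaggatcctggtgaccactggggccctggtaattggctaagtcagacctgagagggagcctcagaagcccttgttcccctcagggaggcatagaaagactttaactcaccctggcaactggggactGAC
Olfr571, chr7:102909835-102910087, minus strand: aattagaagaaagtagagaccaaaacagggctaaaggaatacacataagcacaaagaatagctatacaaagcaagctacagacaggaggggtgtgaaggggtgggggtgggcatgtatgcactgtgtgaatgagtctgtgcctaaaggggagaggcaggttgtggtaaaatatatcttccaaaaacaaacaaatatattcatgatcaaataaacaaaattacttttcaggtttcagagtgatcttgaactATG

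The window of Olfr571 ends at ATG, so its annotated start is the start of the coding region. The same held for 72.4% of the 948 RefSeq windows of Olfr genes and for 3.85% of the windows of other genes, and what lies upstream of the transcripts of those receptors is then not in the window. Letters were searched on both strands in windows of 300 bases. CCCNNGGG, the core bound by the EBF factors of olfactory neurons, stood in 13.7% of all 32851 windows. It stood in 3.06% of Olfr windows and in 2.37% of the 295 windows of member genes. Among the 262 Olfr windows with no ATG at the annotated start it stood in 7.63%. TAATTA, a core of homeodomain factors such as Lhx2, stood in 5.29% of all windows, 18.6% of Olfr windows and 19.7% of member windows. In those 262 windows it stood in 18.3%. A motif of NF-kB, searched likewise, stood in 0.155% of all windows and in 0 Olfr windows, and is too rare for a difference to be read. Of the 356 members 355 matched RefSeq, and 8 overlap a gene that is no olfactory receptor.

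The members were dim. Levels below are log2 processed intensity minus the 75th percentile of the array, so 0 is that percentile. Over the 16 arrays the members' mean level had a median of -3.53 (range -5.38 to 3.05), against -0.95 over all probes tested. Only 16 members lay above the median of all probes tested, 8 lay above 0, and none was saturated on any array. On single arrays 277 to 465 of the 952 Olfr probes were well above background, while 0% to 1.96% of the 153 negative control spots were.

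Detection differed by group. Of the members 328 passed in the fld LPS group, 325 in the untreated fld group, 258 in the control LPS group and 243 in the untreated control group. All 4 groups shared 224 members, and 35, 56 and 41 passed in 3, 2 and 1 groups. The 2 fld groups alone held 48 members, against 1 in the 2 control groups alone. Members that passed in a single group numbered 22 in fld LPS and 16 in untreated fld, against 1 in control LPS and 2 in untreated control. The mean share of Olfr probes well above background on an array was 43.4% in fld LPS and 41.2% in untreated fld. It was 34.1% in control LPS and 31.6% in untreated control. For all other probes these shares were 61.7%, 64.5%, 61.8% and 63.0%, in the same order.

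Members at the edge of the rule show what it kept. Olfr1208 was inside, with all 4 fld LPS arrays and no other array well above background. The A_51_P439179 probe of Olfr586 had the same pattern, and Olfr690 had 2 untreated fld arrays besides. Just outside were Olfr1442 and Olfr1271, each well above background on 3 of 4 arrays in every group, and Olfr888 on 3, 3, 3 and 1 arrays of fld LPS, untreated fld, control LPS and untreated control. Over the 16 arrays Olfr1442 averaged -4.48 and Olfr1208 -5.07.

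Median member levels separated the genotypes. The median over the members was -2.87, -2.91, -3.05 and -2.05 in fld LPS replicates 1 to 4. It was -3.14, -3.50, -3.41 and -3.27 in untreated fld, -3.46, -3.69, -4.12 and -3.71 in control LPS, and -3.85, -4.13, -4.11 and -3.92 in untreated control arrays. With LPS every fld array lay above every control array, and the same held without LPS. More members passed the rule through fld groups alone than through control groups alone, so the rule favours this order. Over all 952 Olfr probes, unselected, the median ran from -5.22 to -4.06 in fld LPS and from -6.42 to -5.69 in control LPS arrays. Untreated, the unselected median ran from -5.77 to -5.18 in fld and from -6.49 to -6.20 in control arrays. Fld LPS replicate 4 stood highest of the 16, and its 75th percentile of 189 was the lowest of the 16.

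**Figure D1:**
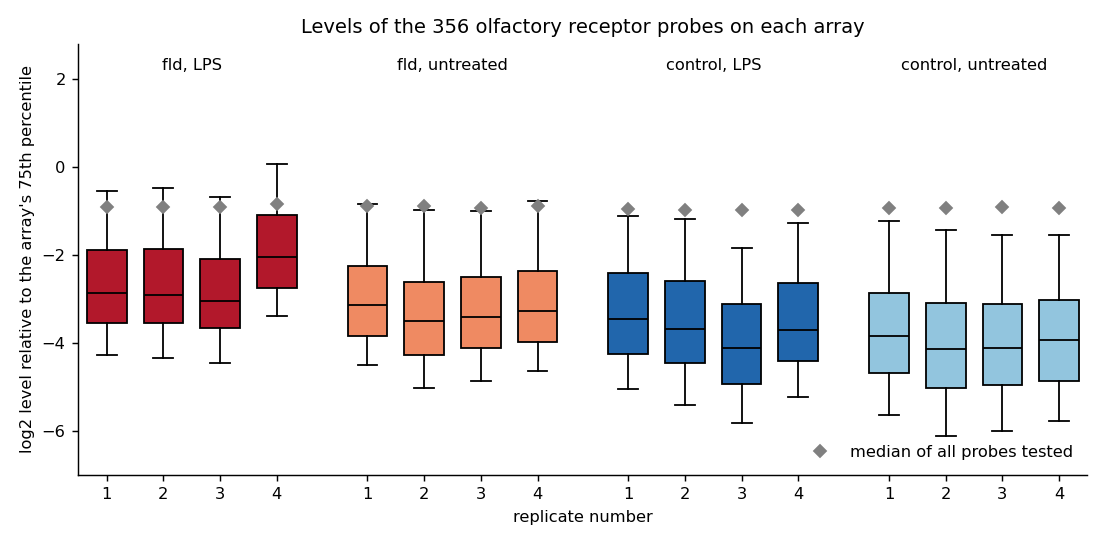
Log2 levels of the 356 members on each of the 16 arrays, relative to the 75th percentile of the array, by group and replicate number. Boxes span the quartiles with the median as a line, whiskers all but the outer 5% at each end, and diamonds mark the median of all probes tested, which stays between -0.98 and -0.83 while the member medians run from -4.13 to -2.05.

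Before scaling, the median processed intensity of the members was 52.9, 33.5, 49.6 and 45.5 units in fld LPS replicates 1 to 4 and 47.0, 51.5, 45.5 and 58.1 in untreated fld. Control LPS arrays had 37.8, 26.0, 36.0 and 34.8 units and untreated control arrays 32.8, 29.1, 33.9 and 38.6. With LPS 1 fld array, replicate 2, fell inside the control range, and without LPS the genotypes did not overlap. Over the same arrays the median intensity of the negative control spots was 2.72 to 4.70 units. Before background subtraction their mean signal was 36.2 to 38.3 units in fld LPS and 34.8 to 37.2 in untreated fld. It was 35.3 to 36.8 in control LPS and 37.8 to 38.2 in untreated control. The median local background was 31 to 34.5, 31.5 to 35, 33 to 35 and 36 to 38 units in those 4 groups, in that order.

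In the presence of LPS the members were brighter in cells labelled fld than in control cells. The median log2 difference over members was 1.05, with quartiles of 0.76 and 1.39, against 0.01 over all probes tested. In limma's test, adjusted over all 25534 probes, 255 of the 356 members were higher and 0 lower. Among all probes 13.2% were called higher and 0.803% lower. The 4 fld arrays lay above all 4 control arrays for 261 members, while 15.2% of all probes did so, and below them for 0 members, against 2.62%. At an unadjusted p under 0.05 limma had 294 members higher and 0 lower, against 19.9% and 5.02% of all probes. No member was called lower with quantile normalization or no scaling, against 4.84% and 0.352% of all probes. None was with an intensity trend or a replicate block, for which shares of all probes are not given. Subtracting the array median called 4 lower (Olfr638, Olfr1366, Olfr1065 and Olfr1316, named after their values were seen), against 39.2% of all probes. Without the 2 arrays of fld replicate 4, 203 members were higher, with a median of 0.83, against 10.1% of all probes.

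The filter could have picked members that differ, so 2 other sets were read. Over all 952 Olfr probes with no filter the median difference was 0.88, against 0.24 over all probes. In that set 378 were higher and 0 lower, against 11.8% and 0.347% of all probes. Much of it lies near background, since its 596 probes that are no members had a median level of -6.68. Negative control spots had medians of -7.47 to -5.89 on that scale. On single arrays 24.6% to 41.4% of Olfr probes held a surrogate value, set by the scanner software in place of a low signal. The part of this floor in the unfiltered medians, here and below, was not tested. Over the 224 members detected on all 16 arrays the median was 0.97, and 160 were higher and 0 lower, against 10.8% and 0.627% of such probes.

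The 5 largest differences among called members without overlap were those of Olfr1222, Olfr1431, Olfr1022, Olfr689 and Olfr1097. For none of these 5 receptors is a function given here. Olfr1222 read -0.80, -0.37, -0.66 and 0.01 in fld LPS arrays, against -2.37, -2.35, -4.43 and -3.58 in control LPS arrays, a log2 difference of 2.73 (SE 0.53, limma adjusted p = 0.00258). The scanner software called it on all 16 arrays, and its control replicates spread by over 2 log2 units. Olfr689 read -2.71, -2.37, -3.05 and -1.81 with LPS in fld, against -4.52, -4.31, -5.30 and -5.03 in control, a difference of 2.31 (SE 0.25, limma adjusted p = 8.54e-05). Olfr1431, Olfr1022 and Olfr1097 were not well above background on any control LPS array, and their fld LPS arrays were at least 3.26-fold, 2.98-fold and 2.96-fold higher. Each such bound sets the mean of the bright group against, on each array of the dim group, the higher of the probe's own level and the lowest level called well above background. These 3 probes entered the set through the fld groups, so their differences follow from the rule.

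Without LPS the members were also brighter in cells labelled fld, by a smaller median. The median log2 difference was 0.73 (quartiles 0.47 and 1.05), against 0.04 over all probes tested. Limma called 108 members higher and 0 lower, against 3.56% and 0.204% of all probes. The groups did not overlap, with fld higher, for 225 members, against 10.8% of all probes, and with fld lower for 1, against 2.5%. At an unadjusted p under 0.05 limma had 243 higher and 1 lower, against 13.4% and 3.37% of all probes. The 1 member with fld lower was Olfr344, named after its values were seen, at -0.66 (SE 0.19, limma adjusted p = 0.062). Olfr344 was called lower with a replicate block and with quantile normalization, and no member was with an intensity trend or no scaling. Of all probes 0.333% were lower with quantile normalization and 0.0392% with no scaling, and the other 2 shares are not given. With no filter the 952 Olfr probes had a median of 0.49 and 105 higher and 0 lower, against 2.07% and 0.068% of all probes. The 224 members seen on all arrays had a median of 0.67 and 51 higher and 0 lower, against 2.17% and 0.164% of such probes.

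This count depended on the background step. With normexp background or with the mean signal left as read, 3 and 4 members were called higher, against 0.121% and 0.223% of all probes. The median difference was 0.32 and 0.38, against 0.03 over all probes under both. Olfr638, Olfr1444 and Olfr65, named after their values were seen, were called under both, and Olfr1176 with the mean signal. Without the 2 arrays of fld replicate 4, 128 members were higher, against 4.39% of all probes, and the median was 0.71. Leaving out only fld LPS replicate 4, which takes no part in this comparison but in the shared estimate of spread, gave 178 higher and 1 lower. Among all probes 6.58% and 0.497% were then called. Counts called in both directions were 54, 54, 40 and 60 without untreated control replicate 2, untreated control replicate 3, untreated fld replicate 1 and untreated fld replicate 4. For these 4 fits the shares of all probes are not given.

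The 5 largest differences among called members without overlap were those of Olfr835, Olfr586 (A_51_P107807), Olfr114, Olfr748 and Olfr1055 when untreated. Olfr114 read -3.62, -4.20, -4.33 and -3.90 in untreated fld arrays, against -5.19, -6.02, -5.80 and -5.34 in untreated control arrays. The groups did not overlap, and the difference was 1.57 (SE 0.24, limma adjusted p = 0.00315). In Olfr835, Olfr586, Olfr748 and Olfr1055 the untreated control arrays were all below the call of well above background, and untreated fld was at least 2.47-fold, 1.56-fold, 1.81-fold and 2.32-fold higher. Olfr114 and Olfr586 passed the rule only in the 2 fld groups and Olfr748 only in untreated fld, so for these 3 the difference follows from the rule. Olfr835 and Olfr1055 also passed in control LPS.

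With arrays scaled to the 75th percentile, LPS raised a larger share of members than of all probes in cells labelled fld, and with no scaling the direction turned. In those cells the median log2 difference of LPS over untreated was 0.67 (quartiles 0.43 and 0.91), against 0.06 over all probes, and limma called 177 members higher and 5 lower. Among all probes 21.2% were called higher and 17.6% lower. The groups did not overlap, with LPS higher, for 172 members, against 20.1% of all probes, and below for 4, against 15.9%. With no filter 297 of 952 Olfr probes were higher and 8 lower, against 18.8% and 9.97% of all probes. On the 224 members seen on all arrays 118 were higher and 4 lower, against 22.2% and 18.1%. The count depended on single arrays and on scaling. Without fld LPS replicate 4 the members called numbered 109 higher and 8 lower with a median of 0.45, against 18.3% and 15.9% of all probes. Without both arrays of fld replicate 4 they numbered 92 and 6, with a median of 0.47, against 16.2% and 14.1% of all probes. Without untreated fld replicate 2, 109 members were higher and 3 lower, and the share of all probes is not given. With no scaling of the arrays 11 members were higher and 38 lower, against 2.29% and 50% of all probes, with a median of -0.11 against -0.72.

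In control cells LPS moved the members less far from all probes. Limma called 53 members higher and 1 lower, against 15.1% and 15.4% of all probes, so the share of members called higher (14.9%) was near that of all probes. The median log2 difference was 0.31 (quartiles 0.05 and 0.52), against 0.03 over all probes. For 42 members the LPS arrays lay above the untreated ones, against 16.8% of all probes, and below for 0, against 16.5%. With no filter 52 of 952 Olfr probes were higher and 2 lower, against 8.11% and 8.09% of all probes, and of the 224 members seen on all arrays 30 were higher and 1 lower, against 16.7% and 15.5%. With no scaling the median was 0.05 and 12 members were higher and 4 lower, against 3.32% and 8.94% of all probes. The 1 member called lower was Olfr611, named after its values were seen, at -0.57 (SE 0.17, limma adjusted p = 0.0184), and its groups overlapped. Counts called in both directions were 34, 33, 33, 86 and 85 without untreated control replicate 2, control LPS replicate 1, control LPS replicate 4, control LPS replicate 3 and fld LPS replicate 4. In the last of these fits 17.3% of all probes were called higher and 17.1% lower. For the others the shares are not given.

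Between the genotypes the LPS responses of the members were not called different. The difference of the responses, fld minus control, had a median of 0.36 over members, against 0.00 over all probes. In limma's test 0 of 356 members passed in either direction, and 0% of all probes did. At an unadjusted p under 0.05, 67 members were higher and 6 lower, against 6.25% and 3.04% of all probes. Olfr638 was called lower over the probes detected on all 16 arrays (adjusted p = 0.047), where 0.00468% of probes were called in each direction, and with the array median subtracted (adjusted p = 0.0301). With quantile normalization Olfr638 and Olfr434 were called lower. Without control LPS replicate 3, 1 member was called. With no scaling the median turned to -0.15. Without both arrays of fld replicate 4 the median was 0.17.

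Scaling bears on every direction above. Over all probes tested, subtracting the array median instead of the 75th percentile shifted the median difference of fld over control with LPS by -0.40, and no scaling shifted it by -0.60. For log2 processed intensities, subtracting any 1 constant from each array left the members' median 1.04 above that of all probes with LPS. Untreated it stayed 0.69 above, since a constant cancels. The same distances were 0.61 for LPS over untreated in fld cells and 0.29 in control cells. Quantile normalization, which reshapes each array, gave 0.81, 0.57, 0.54 and 0.28. The background step changed these distances more. They were 0.54, 0.28, 0.42 and 0.18 with normexp background and 0.71, 0.35, 0.48 and 0.18 with the mean signal, in the same order. With the array median subtracted, 4 members were called lower in fld with LPS, against 39.2% of all probes, and higher calls were 217, against 9.25%.

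The difference between genotypes was read at matched brightness, dividing the probes tested into 10 classes by mean level. Members in the dimmest class (104 probes, level up to -4.08) had a median difference of fld over control of 1.23 with LPS, against 0.46 in the other probes of that class. In the fifth class the 26 members had 0.96, against 0.02. Untreated, the same classes had 1.05 and 0.55 for members and 0.25 and 0.00 for other probes. The differences of other probes thus approached 0 by the fifth class, and those of the members fell to 0.79 with LPS and 0.47 untreated in the sixth, which held 8 members. These classes were made after the data had been seen, and medians over members are given without a test. Of the members 48 passed only in the 2 fld groups, 22 only in fld LPS and 16 only in untreated fld. In control the same counts were 1, 1 and 2. For such members the direction follows from the rule, and the classes were not read without them.

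**Figure D2:**
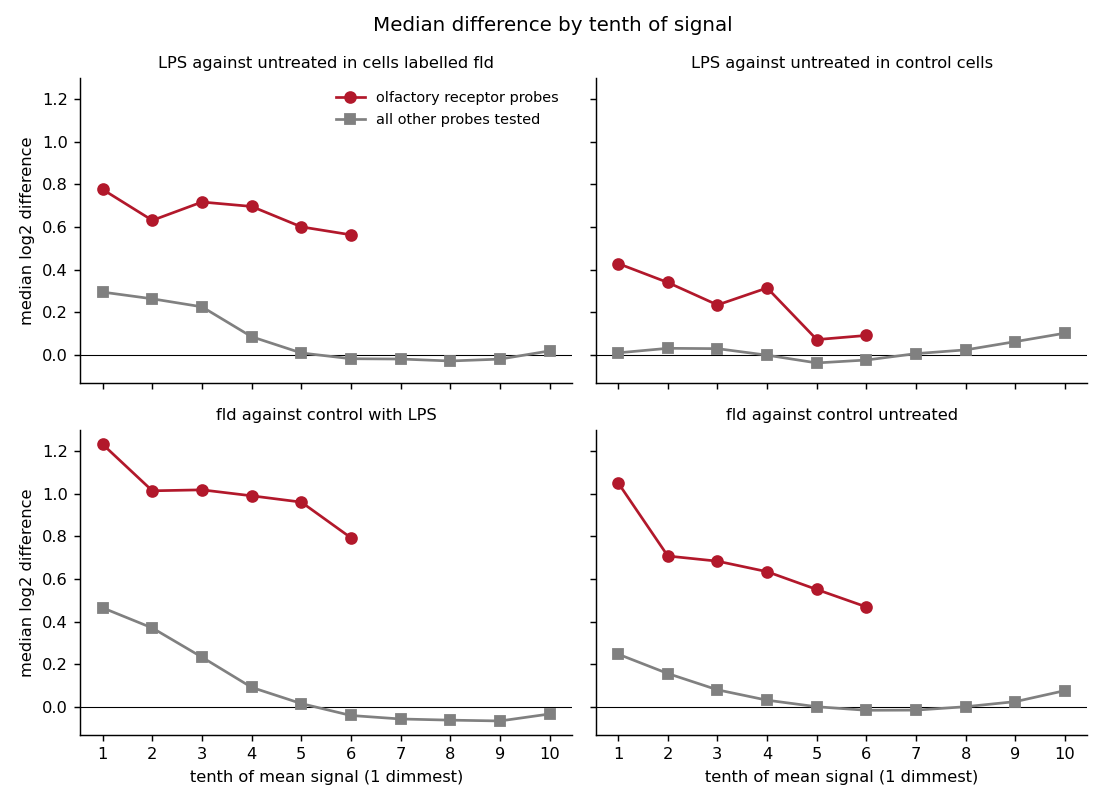
Median log2 difference in each of 10 classes of mean signal (1 dimmest), for the members (circles, classes with at least 8 members) and for all other probes tested (squares), in 4 comparisons. With the array's 75th percentile as scale, members lie above other probes of like signal in each class shown, for example 1.23 against 0.46 in class 1 with LPS in fld over control. Members that passed the rule only through fld groups are included.

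The members also moved together between replicates. Within-group deviations from the group mean correlated between 2 members at a median of 0.55 over 16 arrays, with 92.9% of pairs above 0. A sample of 2513 other probes had a median of 0.00 and 50.05% above 0. Members share the array, its scale and its background, and no p is given. The median deviation of the members was -0.17, -0.15, -0.31 and 0.64 in fld LPS replicates 1 to 4, 0.17, -0.18, -0.06 and 0.06 in untreated fld, 0.26, 0.08, -0.42 and 0.06 in control LPS and 0.16, -0.10, -0.14 and 0.07 in untreated control arrays. The median SD between replicates was 0.46, 0.25, 0.37 and 0.26 in fld LPS, untreated fld, control LPS and untreated control for members, against 0.26, 0.19, 0.19 and 0.20 for other probes.

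Repeated spots gave the spread of single spots within an array for 3 members with 10 spots each. The SDs between arrays are of the mean of those 10 spots, so they are an unlike measure. Olfr166 (A_51_P271160) had a median SD over its single spots of 0.14. Its means had an SD of 0.37 between the fld LPS arrays and 0.05 between untreated control arrays. For Olfr1307 these were 0.13, 0.46 and 0.09, and for Olfr22-ps1, the dimmest of the 3 at -5.22, they were 0.48, 0.62 and 0.17.

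Position on the array went with the size of the difference, and this was read after the data had been seen. With the spot rows cut into 4 equal bands, the members' median difference of fld over control with LPS was 0.73, 0.91, 1.04 and 1.43 from the first band to the last. Called higher were 29 of 59, 59 of 100, 73 of 98 and 94 of 99 members. Over the whole array 13.2% of all probes tested were, and the shares by band are not given. Other probes of the 3 dimmest classes had 0.25, 0.32, 0.37 and 0.49 in the same bands. Untreated, the members had 0.27, 0.77, 0.83 and 0.76, and those other probes 0.03, 0.19, 0.21 and 0.25. The part of position in the difference was not tested.

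**Figure D3:**
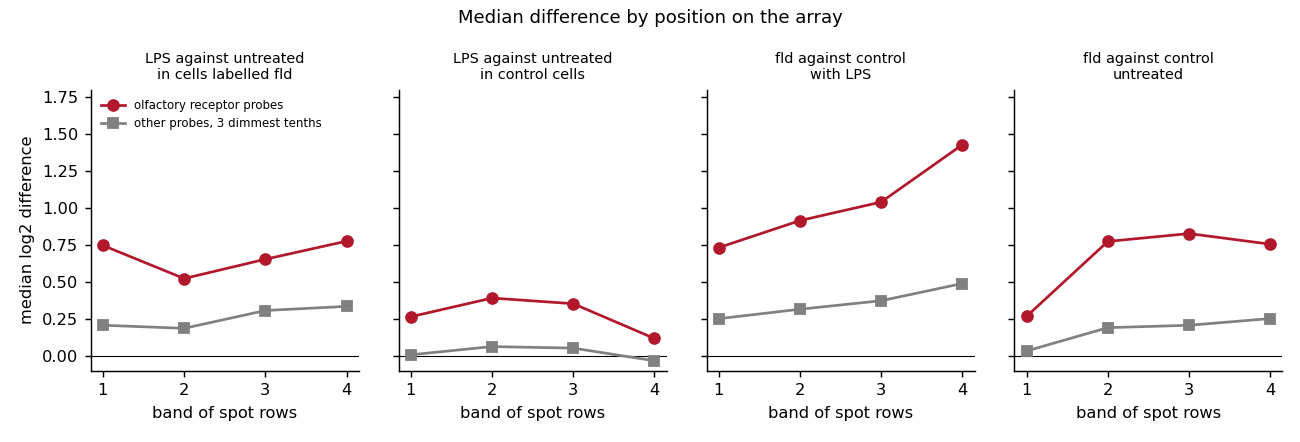
Median log2 difference by band of spot rows of the array (4 equal bands), for members (circles) and for other probes in the 3 dimmest classes (squares), in 4 comparisons. In fld over control with LPS the members run from 0.73 in band 1 to 1.43 in band 4, and the other dim probes from 0.25 to 0.49.

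By chromosome the members' median difference with LPS varied. Chromosome 2 held 92 members of 240 Olfr probes, with a median difference of fld over control of 1.03 with LPS and 0.74 untreated. Chromosome 7 held 82 of 208, with 1.10 and 0.78. Chromosome 9 held 30 of 122, with 1.09 and 0.64, and chromosome 11 held 32 of 61, with 1.09 and 0.75. Chromosome 10, with 17 members of 57 probes, had 0.76 and 0.61. Of its members 7 were called higher with LPS, against 13.2% of all probes on any chromosome. Chromosome 17, with 13 members of 40 probes, had 0.70 and 0.58. None of the 4 probes on chromosome X was a member.

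Probes of other families that are dim here, most of them below the filter, moved alike. A shift was thus not seen in olfactory receptor probes alone. Over all their probes with no filter, the 126 probes of vomeronasal receptors, which detect pheromones, had a median difference of fld over control of 0.81 with LPS and 0.36 untreated. The corresponding values were 0.80 and 0.46 for 34 probes of keratin associated proteins of hair, 0.53 and 0.27 for 16 taste receptor probes, and 0.58 and 0.18 for 28 beta defensin probes. Olfr probes had 0.88 and 0.49 and all probes 0.24 and 0.09. The median levels of those 4 families were -6.32, -5.76, -6.82 and -6.60, near the negative control spots given below. The filter passed 31, 14, 6 and 6 of their probes. Those passing had medians of fld over control of 1.11, 0.98, 0.70 and 0.65 with LPS and 0.71, 0.48, 0.73 and 0.40 untreated. LPS over untreated in fld cells gave 0.62 for vomeronasal receptors, 0.61 for keratin associated proteins and 0.65 for Olfr probes. Over the probes passing the filter, with no scaling, that direction turned to -0.19, -0.17 and -0.11, against -0.72 over all probes tested. The negative control spots, scaled to the 75th percentile, had medians of -7.15, -6.44, -6.91 and -5.89 in fld LPS replicates 1 to 4. They were -7.22, -7.38, -7.32 and -6.90 in untreated fld. In control arrays they were -7.07, -6.82, -7.47 and -7.08 with LPS and -7.40, -7.30, -7.45 and -7.17 untreated. The part of this shift of blank spots in the members' differences was not tested.

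**Figure D4:**
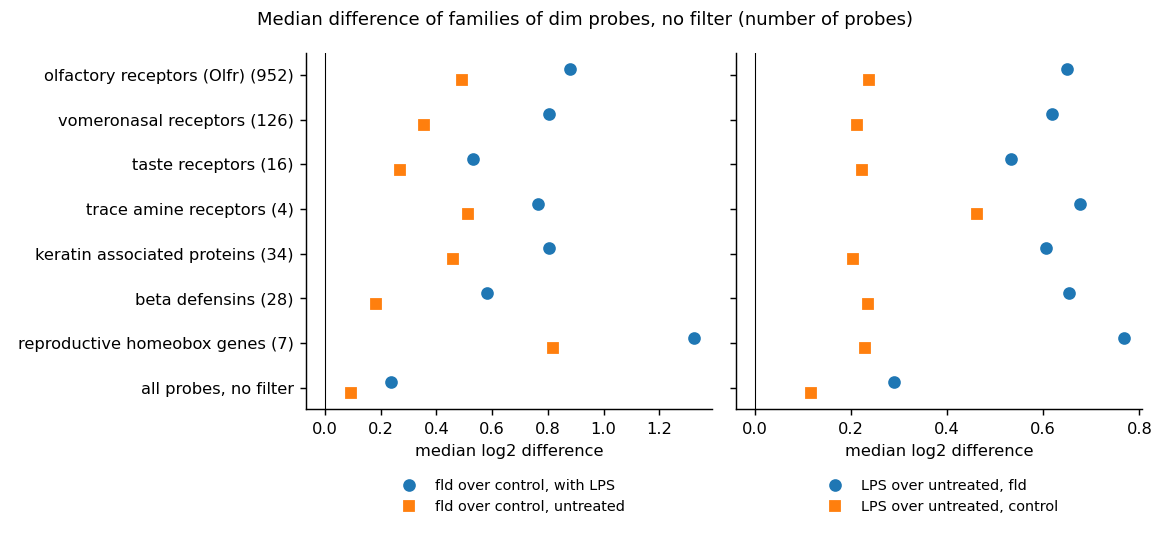
Median log2 difference over all probes of 7 gene families and over all probes of the array, with no filter on dim probes, for fld over control (left) and LPS over untreated (right), scaled to the 75th percentile. Each family lies right of all probes in each of the 4 comparisons. With no scaling the medians of LPS over untreated in fld turn below 0 in each family over the probes passing the filter. They then run from -0.42 to -0.01, against -0.72 over all probes tested.

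Single members differed from this common shift. The brightest was Olfr571 (NM_147085, probe on chromosome 7 at 98958938 to 98958997 as the scanner files give it, with no build named). It read 3.25, 3.44, 3.19 and 3.81 in fld LPS and 3.11, 2.98, 3.0 and 3.07 in untreated fld arrays. In control arrays it read 3.23, 3.23, 2.57 and 2.82 with LPS and 2.91, 2.83, 2.69 and 2.68 untreated. The groups with LPS overlapped and no comparison passed limma's test, with differences of fld over control of 0.46 with LPS (SE 0.16, adjusted p = 0.0684) and 0.26 untreated (SE 0.16, adjusted p = 0.441).

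Olfr374 (NM_146338), whose start window is shown above, lies between Cyp4f18 and Tpm4 on chromosome 8 in RefSeq. It read 3.0, 2.97, 3.12 and 2.69 in fld LPS, against 1.10, 1.51, 1.10 and 1.08 in untreated fld arrays. In control cells it read 2.49, 2.45, 2.04 and 2.33 with LPS, against 1.34, 0.91, 0.98 and 0.83 untreated. LPS arrays lay above untreated ones in both genotypes, by 1.75 in fld and 1.31 in control (SE 0.15 each, limma adjusted p = 8.14e-07 and 1.22e-05). With LPS the fld arrays also lay above the control arrays, by 0.62 (adjusted p = 0.00993). This probe passed in all 4 groups, so the rule did not fix these differences.

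The dimmer members Olfr987, Olfr554, Olfr394 and Olfr487, also rose with LPS in both genotypes. Olfr987 read -1.16, -1.63, -1.68 and -1.18 in fld LPS, against -4.14, -4.71, -3.82 and -4.36 in untreated fld arrays. Control arrays gave -2.08, -2.41, -2.79 and -2.28 with LPS, against -4.58, -5.00, -4.70 and -4.76 untreated. The groups were over 1 log2 unit apart in each genotype, and the differences were 2.84 in fld and 2.37 in control (SE 0.20 each, limma adjusted p = 1.31e-07 and 6.82e-07). Olfr554 differed by 2.47 and 2.16 (SE 0.36), Olfr394 by 1.77 and 2.00 (SE 0.17) and Olfr487 by 1.98 and 1.25 (SE 0.25), all with limma adjusted p of 0.00146 or lower. Olfr1015 was well above background on all 8 LPS arrays and on none of the 8 untreated ones, and was at least 3.25-fold higher with LPS in fld and 1.69-fold higher in control. It entered through the LPS groups, so that difference follows from the rule. Olfr835 rose by 1.20 in fld (SE 0.23, limma adjusted p = 0.00101) and was at least 2.21-fold higher with LPS in control cells.

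In cells labelled fld 5 members fell with LPS. Olfr638 read -2.40, -3.05, -2.70 and -3.01 in fld LPS, against -1.50, -1.69, -1.45 and -1.43 in untreated fld arrays, a difference of -1.27 (SE 0.18, limma adjusted p = 8.81e-05). In control cells it read -2.34, -2.28, -3.13 and -2.47 with LPS, against -3.00, -2.91, -2.93 and -3.18 untreated, a difference of 0.45 (adjusted p = 0.0724). Its untreated fld arrays stood above all other 12 arrays, by 1.48 over untreated control (adjusted p = 0.00087). The difference between its responses was -1.72 (SE 0.25, limma adjusted p = 0.0813) and did not pass. Olfr1366, which overlaps Gm32724 in RefSeq, differed by -0.98 in fld (adjusted p = 0.0132), and Olfr1153 by -0.66 in fld (SE 0.23, adjusted p = 0.033) and -0.56 in control (adjusted p = 0.0776). Olfr350 was not well above background on any fld LPS array, and untreated fld was at least 1.51-fold higher. It passed the rule only in untreated fld, so this difference follows from the rule. It turned to 0.12 with normexp background and 0.06 with the mean signal. Olfr434, named after its values were seen, differed by -0.60 in fld (adjusted p = 0.0327) with overlapping groups.

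**Figure D5:**
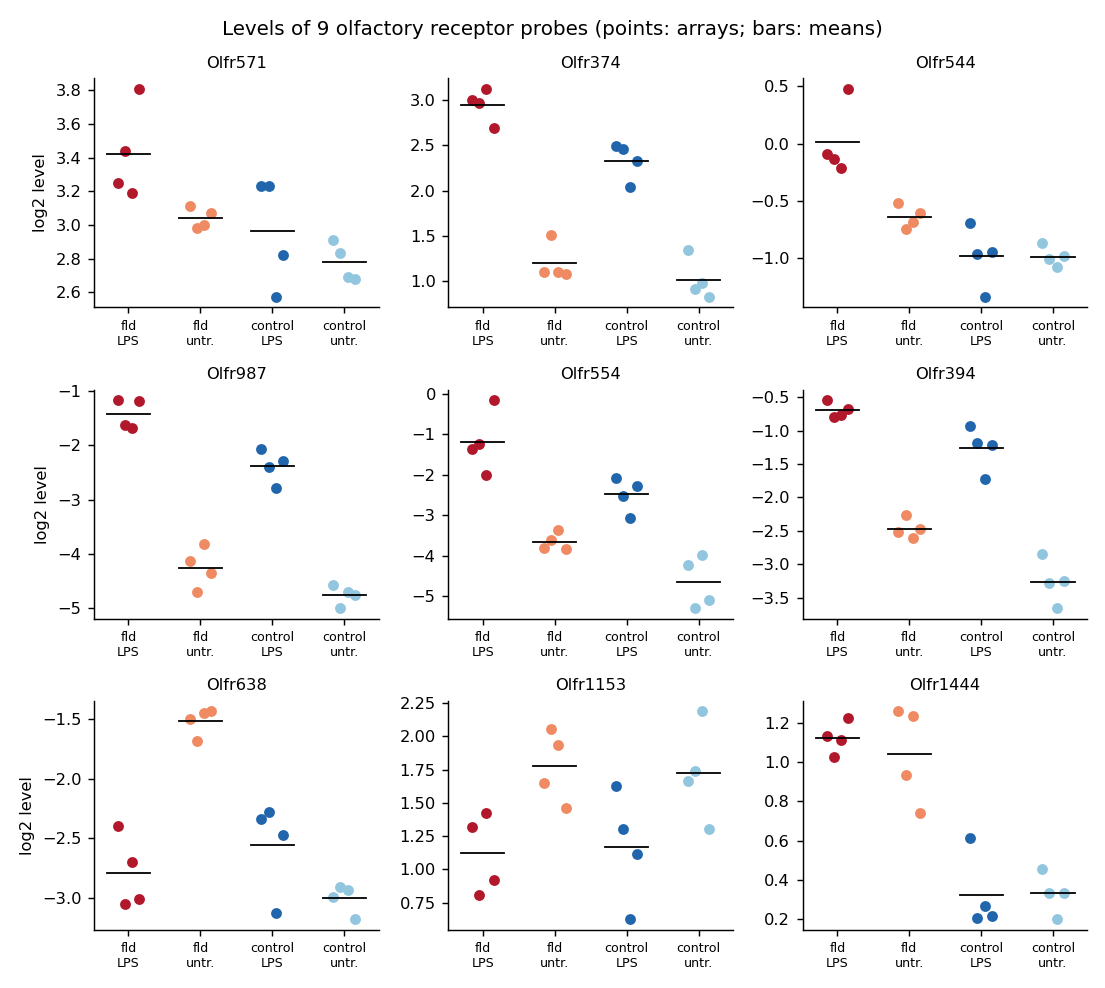
Log2 levels of 9 members on each array (points) with group means (bars), relative to the array's 75th percentile, ordered fld LPS, untreated fld, control LPS and untreated control. Olfr374, Olfr987, Olfr554 and Olfr394 are higher with LPS in both genotypes, Olfr638 stands highest in untreated fld at a mean of -1.52, and Olfr1444 is higher in fld with and without LPS.

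Among the 12 brightest members, Olfr1444, Olfr128 and Olfr812 were called higher in fld both with LPS and untreated. Olfr1444 had the smallest adjusted p of the 3 in each. Olfr1444 read 1.13, 1.02, 1.11 and 1.22 in fld LPS against 0.62, 0.20, 0.27 and 0.22 in control LPS arrays, and 1.26, 0.93, 1.23 and 0.74 in untreated fld against 0.46, 0.33, 0.20 and 0.33 in untreated control arrays. The genotypes did not overlap, and the differences were 0.80 and 0.71 (SE 0.13 each, limma adjusted p = 0.000781 and 0.00836), while LPS moved it by 0.08 in fld and -0.01 in control. Olfr128 differed by 0.78 with LPS and 0.77 untreated (adjusted p = 0.00438 and 0.0176), and Olfr812 by 0.43 and 0.56 (adjusted p = 0.0486 and 0.0343). Olfr1131 (0.80), Olfr462 (0.92), Olfr374 and Olfr544 passed only with LPS (adjusted p = 0.0158 and 0.0364 for Olfr1131 and Olfr462, and values for Olfr374 and Olfr544 stand with those genes). Olfr234 (A_52_P23366, 0.41), Olfr430 (0.21), Olfr744 (0.79) and Olfr1153 (-0.05) did not pass with LPS. Without scaling, the differences of Olfr571, Olfr234, Olfr430 and Olfr812 with LPS turned below 0.

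Receptors with known roles outside the nose gave mixed values. Olfr544, a receptor of azelaic acid in mouse liver and fat, read -0.09, -0.14, -0.21 and 0.48 in fld LPS and -0.52, -0.75, -0.69 and -0.61 in untreated fld arrays. Control arrays read -0.69, -0.96, -1.34 and -0.95 with LPS and -0.87, -1.01, -1.08 and -0.98 untreated. Fld LPS arrays stood above all others, by 1.0 over control LPS (SE 0.15, limma adjusted p = 0.000586) and 0.65 over untreated fld (adjusted p = 0.00416). Olfr2, which mouse vascular macrophages are known to express, was well above background on 1 fld LPS, 4 untreated fld, 3 control LPS and 2 untreated control arrays, and no comparison passed (adjusted p = 0.251 or higher). Olfr78 and Olfr558 were no members, with 2 and 3 of 16 arrays well above background, and Olfr16 had 1.

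Olfr56 lies beside Ifi47, an interferon-induced GTPase gene, on chromosome 11. Olfr56 read -2.98, -3.09, -3.58 and -2.14 in fld LPS against -3.57, -4.03, -5.02 and -4.17 in control LPS arrays, and -3.08, -3.82, -3.63 and -3.98 in untreated fld against -4.44, -5.45, -5.45 and -4.95 in untreated control arrays. The groups overlapped at -3.58 and -3.57 with LPS and did not overlap untreated, with differences of 1.25 and 1.44 (SE 0.34 each, limma adjusted p = 0.0215 and 0.0289). Ifi47 differed by -0.10 with LPS and 0.95 untreated and passed in neither (adjusted p = 0.913 and 0.204).

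Genes with 2 member probes showed how far probes of 1 receptor can part. Olfr234 had 1 probe at a mean level of 1.08 (A_52_P23366) and 1 at -3.91 (A_51_P287956). Their fld over control differences were 0.41 and 1.20 with LPS and 0.17 and 1.35 untreated, and the dimmer probe passed in both (limma adjusted p = 0.00216 and 0.00555). For Olfr1355 both probes passed with LPS, at 1.51 and 0.85. Olfr166 had 0.74 and 0.58 with LPS, both called, and -0.02 and 0.12 untreated. Olfr1393 had 0.91, called, and 1.01, and Olfr996 had 1.45, called, and 1.10. Olfr493 had 1.68 (A_51_P204702), called, and 0.70 (A_51_P204707). Olfr586 had 1.13 (A_51_P107807), called. Its other probe (A_51_P439179) was not well above background on any control LPS array, and fld LPS was at least 2.15-fold higher (limma adjusted p = 0.00461). Both Olfr586 probes, A_51_P204702 of Olfr493 and the Olfr1393 probe with 1.01 (A_51_P333896) passed the rule only through fld groups. Their differences therefore follow from the rule.

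Over the 16 arrays the probes most like the brightest members were named by Pearson correlation, which here reads the 4 group means as well as single arrays. Olfr571 correlated at 0.985 with a probe of Igh-VJ558 and with one of AF067063, Olfr374 at 0.996 with 5330438I03Rik and 0.991 with Mrgprg, and Olfr1153 at 0.921 with Wbscr27. These are among the 3 highest of each over the probes tested and are given as a description.

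The genes of olfactory signalling were read beside the receptors. Of 39 listed genes 34 were on the array and 25 were tested. With LPS, fld over control, 6 were called higher and 0 lower, against 13.2% and 0.803% of all probes, with a median of 0.13 against 0.01. Untreated, 1 was called higher and 0 lower, against 3.56% and 0.204%. LPS over untreated gave 7 higher and 3 lower in fld, against 21.2% and 17.6%, and 6 higher and 5 lower in control, against 15.1% and 15.4%. Cnga2, the channel subunit, was higher in fld with LPS by 1.05 (SE 0.19, limma adjusted p = 0.00169), and Omp, the marker of mature olfactory neurons, by 0.84 (SE 0.19, adjusted p = 0.00733). Pde1c, a phosphodiesterase of the cilia, was higher by 1.30 with LPS and 0.98 untreated (adjusted p = 0.000546 and 0.0137). Reep1, a membrane protein of a family that helps receptors reach the surface, passed with LPS (adjusted p = 0.000133) but was not well above background on any control LPS array. Ebf2, a transcription factor, differed by 1.78 with LPS (adjusted p = 0.00914), with 1 of 4 control LPS arrays well above background. Ebf2 was tested only because it passed in fld LPS, and Reep1 because it passed in the 2 fld groups, so both differences follow from the filter. These 5 genes had mean levels of -5.76 to -1.78, below the median of all probes.

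Adcy3, the cyclase of the pathway, rose with LPS in control cells by 0.85 (SE 0.21, limma adjusted p = 0.00545) and differed by 0.40 in fld (adjusted p = 0.133). Arrb2, a beta-arrestin, fell with LPS, with differences of -1.31 in fld and -1.07 in control (limma adjusted p = 0.00534 and 0.0194). Ldb1, a partner of Lhx2, fell too, with -0.32 and -0.53 (limma adjusted p = 0.00805 and 0.00025).

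Of the 3 markers of olfactory sensory neurons tested, Cnga2 and Omp were called higher in fld with LPS, while Adcy3 differed by -0.17 (limma adjusted p = 0.682), and none was called untreated. The 6 markers on the array summed to 0.787 to 1.20 in fld LPS, 0.507 to 0.699 in untreated fld, 0.428 to 0.562 in control LPS and 0.389 to 0.487 in untreated control arrays, in units of the array's 75th percentile. Stoml3 was well above background on no array, and Gnal and Rtp1 each on 2 of 16, both in arrays labelled fld. Markers of neutrophils, of which 4 of 5 are on the array, summed to 18.9 to 26.6 in fld LPS, 1.04 to 1.48 in untreated fld, 8.96 to 15.8 in control LPS and 1.11 to 2.18 in untreated control arrays. S100a8, a calcium-binding protein, was the brightest of these by group mean, at 4.43 in fld LPS and 3.68 in control LPS, while Camp and S100a9 were below 0 in every group. With LPS, fld over control, S100a8 and S100a9 were called higher and Camp differed by -0.40 (limma adjusted p = 0.425). In that comparison limma called 2 of 3 tested neutrophil markers, 2 of 4 fibroblast markers, 1 of 4 T cell markers and 2 of 3 olfactory neuron markers higher. None of 8 macrophage, 4 large peritoneal macrophage, 5 B cell, 4 mast cell or 2 mesothelial markers was called. Untreated, 1 T cell marker was called higher and 1 B cell marker lower. The part of these cell types in the members' differences was not tested.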

How the data were processed

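Per the labels, RNA of the macrophages was hybridised to single-colour Agilent mouse arrays. Per the file headers, the authors' scanner files hold intensities from Agilent Feature Extraction 9.5.1.1, with the background taken from a fitted surface and signals detrended within each array. The deposited series value table holds ratios, found from the values to be the processed intensity divided by the median of each array. Spots with an outlier flag (0.208% of values) were left out, and repeated spots averaged. Levels are log2 processed intensity minus the 75th percentile of the array, over spots that are not controls. Tests used limma 3.58.1 in R 4.3.3, fitted over 4 groups and all probes passing the filter, with Benjamini-Hochberg adjusted p under 0.05. The fit was tested on simulated data. The precision is limited by 4 arrays a group. Sequences and gene positions are from RefSeq, GRCm38.p6.

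The members and the lists (olfactory signalling, olfactory neuron, macrophage, large peritoneal macrophage, B cell, T cell, mast cell, neutrophil, mesothelial and fibroblast markers, and 6 other dim families) were chosen with earlier results of these data known. Genes named were 6 receptors known outside the nose, with Ifi47, the 12 brightest members, up to 5 members a direction past the threshold without overlap in each comparison, members at the edge of the rule, genes with 2 member probes, the closest probes of 3 bright members, and signalling genes past the threshold. Names outside that rule are marked where they stand. Alternatives varied scaling, background, filter, outlier flags, probes per gene, prior variance, replicate block and the arrays used.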

Additional observations from a re-analysis of the deposited data

Results flagged for a closer look

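In 196 groups of 4 arrays of the named probes, 6 had an array standing apart from the other 3 by Dixon's criterion for the gap of 1 value, which chance meets in about 1 in 20 groups. In 4 of them that array was fld LPS replicate 4. Olfr2 read -3.10 there, against -5.43 to -5.17 on the other fld LPS arrays. Olfr487 read -1.56, against -2.53 to -2.49. Olfr1022 read -2.42, against -3.85 to -3.70. Olfr166 (A_51_P271160) read -0.55, against -1.32 to -1.23. Olfr374 read 1.51 in untreated fld replicate 2, against 1.08 to 1.1 on the other arrays of its group. Olfr1444 read 0.62 in control LPS replicate 1, against 0.20 to 0.27.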

How the results depend on the processing

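Counts here are members called in both directions. Shares in brackets are of all probes called higher and lower, and none is given for the replicate block or single arrays left out. LPS in fld cells had 182 calls (21.2% and 17.6%) and a median of 0.67. They were 49 (2.29% and 50%) and -0.11 with no scaling, 280 calls (32.8% and 13.9%) with normexp and 274 (32.1% and 14%) with the mean signal. Without both arrays of fld replicate 4 there were 98 (16.2% and 14.1%). LPS in control cells had 54 calls (15.1% and 15.4%), against 16 (3.32% and 8.94%) and a median of 0.050 with no scaling. There were 23 (13% and 10.6%) with normexp and 21 (13.5% and 12.1%) with the mean signal. Over probes detected on all 16 arrays there were 31 (16.7% and 15.5% of such probes). With LPS, fld over control had 255 calls (13.2% and 0.803%) and a median of 1.05. The median was 0.65 with the array median or the deposited value table, 0.75 with quantile normalization, 0.62 with normexp and 0.79 with the mean signal. With no scaling it was 0.45, with 27 calls (0.666% and 0.352%). Calls over probes detected on all 16 arrays were 160 (10.8% and 0.627% of such probes), where fewer members were tested. Untreated, fld over control had 108 calls (3.56% and 0.204%), against 66 (1.95% and 0.333%) with quantile normalization and 39 (0.975% and 0.0392%) with no scaling. With normexp there were 3 (0.121% and 0.0196%), with a median of 0.32. With the mean signal there were 4 (0.223% and 0.0196%), with a median of 0.38. On all 16 arrays there were 51 (2.17% and 0.164% of such probes). The difference of responses had 0 calls (0% and 0%), against 1 with the array median or the value table (0% and 0.0117% each). There was 1 on all 16 arrays (0.00468% and 0.00468% of such probes) and 2 with quantile normalization (0.0117% and 0.0431%). The median of that difference, 0.36, turned to -0.15 with no scaling. Leaving out 1 array gave 112 to 208 calls and medians of 0.45 to 0.78 for LPS in fld, 33 to 86 and 0.21 to 0.44 for LPS in control, 199 to 265 and 0.83 to 1.16 for fld over control with LPS, 40 to 179 and 0.67 to 0.79 untreated, and 0 to 1 and 0.16 to 0.48 for the difference of responses. Whether replicate numbers pair the arrays is not settled. Same-number correlations ran from -0.35 to 0.32 over 24 pairs. Between LPS and untreated arrays of a genotype they were -0.16 to 0.24 in fld and 0.085 to 0.30 in control (4 pairs each), and 2 of 8 fld and 6 of 8 control arrays were closest to their own number. Fld replicate 4 also shares its Lpin1 level across both groups. The replicate block gave 205, 72, 257, 139 and 0 calls in those 5 comparisons.

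Of single members, fld over control with LPS turned in these cases. Olfr2 (-0.11) turned to 0.28 with normexp, 0.39 with the mean signal and 0.071, 0.033 and 0.12 without fld LPS replicate 1, 2 or 3, with a range of -0.66 to 0.12 over single arrays left out. Olfr1153 (-0.05) turned to 0.10 without control LPS replicate 1, 0.054 without fld LPS replicate 2 and 0.017 without fld replicate 4 with LPS or in both groups, with a range of -0.23 to 0.10 over single arrays. With no scaling Olfr571 turned to -0.14, Olfr234 (A_52_P23366) to -0.19, Olfr812 to -0.17, Olfr166 (A_51_P271160) to -0.022 and Olfr430 to -0.39, and Olfr430 to -0.19 with the array median or value table. LPS in fld turned Olfr350 (-1.27) to 0.12 with normexp and 0.056 with the mean signal. Where the background setting changed a result the cause was not tested. Over the named probes 1405 results kept direction and side of the threshold, 125 lost the call, 8 gained it and 18 turned. Signal over background limits the members, whose median level was -3.53.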
